A study of Rattus norvegicus with 12 samples.

Results

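In the trigeminal nucleus caudalis (TNC) of 6 rats, 38 genes differed widely in level from one animal to the next. In the spinal dorsal horn (SC) of the same animals their levels varied much less, though not less than those of a typical gene. These genes are described here out of the 32662 gene identifiers in the count tables, of which 9539 averaged at least 10 CPM, the gene's reads scaled to a common library total, over the 12 libraries. They were chosen from the measured values themselves. On the scale of log2(CPM + 0.5), with CPM taken by library total, a member had a standard deviation (SD) of 0.5 or more over the 6 TNC libraries, an SD under 0.25 over the 6 SC libraries, a mean of 10 CPM or more and a mean difference between the regions under 1. All 12 libraries entered that choice, so the spreads and levels below are descriptions, and no test is attached to them.

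The animals were untreated male Wistar Han rats, an outbred strain, aged 10 weeks. Laser microdissection of frozen 14 µm sections yielded tissue of both regions from each rat, R101 to R106, after perfusion with cold saline, which gave 1 poly(A) RNA library per region and rat. The labels give no treatment or handling that differed between animals, so the only labelled contrast is that between the regions. Whether all animals were handled alike cannot be told from them. The TNC lies in the caudal medulla and is the first central relay for pain, temperature and itch from the face, mouth and meninges. The dorsal horn does the same for the body, and both share a layered structure in which small interneurons, projection neurons, glia and incoming afferent fibres are intermingled. Laser capture cuts out a visible area of a stained section, and everything within its outline enters the sample. In such bulk samples, fewer cells of a type and less RNA per cell cannot be told apart.

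The count tables name genes by Ensembl rat identifiers, which the tables do not pair with symbols, and 0 of the 32662 had an entry in the RefSeq gene table (assembly GRCr8). Which proteins the 38 genes encode, and which cell types they mark, was therefore not analysed here, and the captured tissues were not checked against marker genes. The genes are described by their levels, and 4 of them by identifier.

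Libraries held between 11223405 and 14591508 reads on genes. The 38 genes had means between 10.4 and 256 CPM (median 25.3), against a median of 42.1 CPM over the 9539 genes, with 15 of them under 20 CPM and 4 at 100 CPM or more. Each member had between 48 and 4508 reads in every TNC library. The SD that counting error alone would give in TNC was between 0.0294 and 0.139 (median 0.0956).

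Members spanned a much wider range in TNC than in SC. Their median SD was 0.574 in TNC and 0.179 in SC, and over all 9539 genes the medians were 0.163 and 0.144. The highest TNC library exceeded the lowest by 2.08-fold to 4.55-fold (median 2.86-fold) on the log2(CPM + 0.5) scale, and the highest SC library exceeded the lowest by 1.17-fold to 1.601-fold (median 1.38-fold). These values only restate the choice of the genes. The cut at an SD of 0.5 does not mark a gap: the members nearest to it had TNC SDs of 0.5002, 0.501 and 0.502, and the nearest genes left out had 0.498, 0.498 and 0.49994. Of the 150 genes with a TNC SD of 0.5 or more, 91 were left out because their SC SD was 0.25 or more and 21 because the regions differed by 1 or more on the log2 scale. The reverse choice, an SD of 0.5 or more in SC and under 0.25 in TNC with the other conditions kept, found 6 genes. It started from a smaller number, since 50 genes had an SC SD of 0.5 or more.

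**Figure D1:**
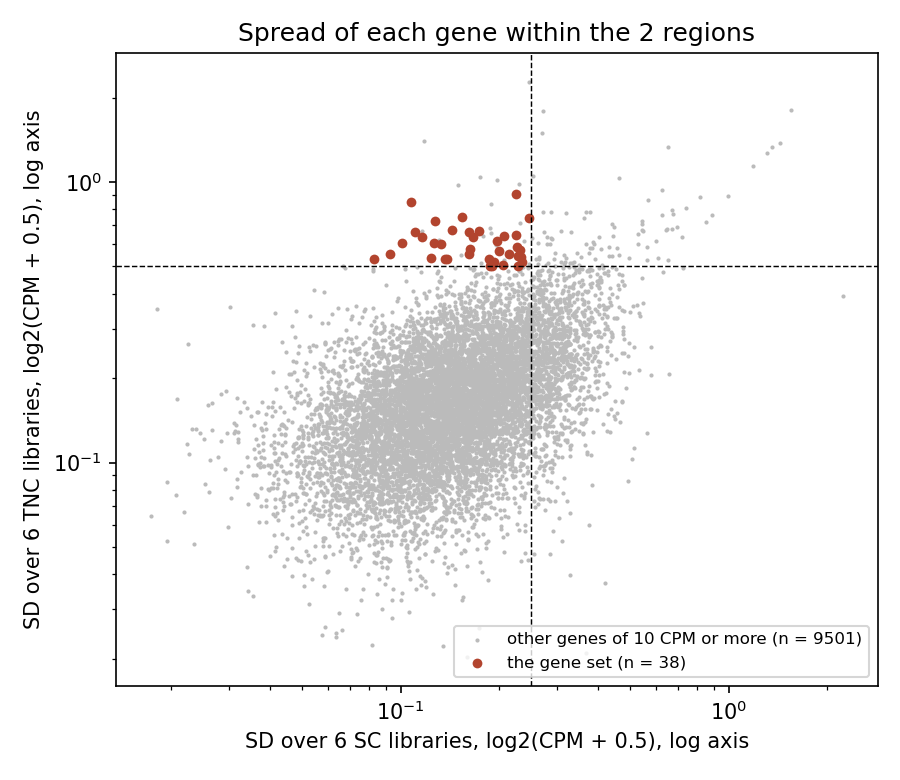
SD of log2(CPM + 0.5) over the 6 TNC libraries (y axis) against that over the 6 SC libraries (x axis) for the 9539 genes averaging 10 CPM or more, both axes logarithmic. Dashed lines mark the SDs of 0.5 and 0.25, and the 38 members (red) lie above the first and left of the second, at the edge of a continuous cloud of genes.

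In 26 of the 38 genes R101, R102 and R103 gave TNC libraries that were the 3 lowest, without overlap with those of R104, R105 and R106. That order was found in 13.0% of the 9539 genes. In 5 further members the same libraries were the 3 highest, an order found in 5.60% of the 9539 genes, and 7 members followed neither order. Among the 112 other genes with a TNC SD of 0.5 or more, 37 had R101, R102 and R103 lowest and 2 had them highest. Of these 37 genes, 14 had been left out only because the regions differed by 1 or more and 23 because of their SC SD. These orders were described after the values had been seen, and a large SD in TNC favours a visible order, so the counts carry no test. Earlier results over the whole data set had already set the same rats apart, so the order is no independent evidence of that separation.

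The member with the widest spread, ENSRNOG00000006526, illustrates the common order. In TNC it had 11.2 CPM in R101, 21.6 in R102, 9.27 in R103, 37.6 in R104, 42.3 in R105 and 33.1 in R106. In SC it had 30.8, 29.1, 34.7, 24.3, 24.3 and 34.4 CPM in the same order of rats. R101 and R103 were thus far below every SC library, R102 was slightly below them, R104 and R105 were above every SC library and R106 was within their range. The mean was 25.8 CPM with an SD of 13.9 in TNC and 29.6 CPM with an SD of 4.60 in SC (n = 6 each), so the regions had similar means and unlike spreads.

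ENSRNOG00000008203 showed the same order at a higher level. In TNC it had 72.9 CPM in R101, 90.4 in R102, 46.8 in R103, 194 in R104, 215 in R105 and 137 in R106. All 6 SC libraries lay between 112 and 133 CPM. R101, R102 and R103 were below that range and R104, R105 and R106 above it, so the TNC libraries enclosed the SC libraries from both sides. Its means were 126 CPM (SD 67.8) over the TNC libraries and 123 CPM (SD 9.18) over the SC libraries (n = 6 each). The lowest and highest TNC libraries, R103 and R105, had 525 and 2612 reads.

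The opposite order was clearest in ENSRNOG00000060237. In TNC it had 20.5 CPM in R101, 22.7 in R102, 22.6 in R103, 7.24 in R104, 8.96 in R105 and 9.00 in R106. Its SC libraries lay between 5.81 and 9.46 CPM, so R104, R105 and R106 were within the SC range and R101, R102 and R103 above it with a wide gap. On the log2 scale, the lowest of R101, R102 and R103 in TNC exceeded the highest of the other rats by 1.15. Its TNC SD stayed between 0.683 and 0.771 whichever rat was left out. Its mean over all libraries, 11.2 CPM, reached the minimum required of a member only through the TNC libraries of R101, R102 and R103. The values that stand out in this gene thus also admitted it to the set. Its SC SD of 0.246 was just under the limit of 0.25. In TNC it had 85 reads in R104, 109 in R105 and 108 in R106.

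ENSRNOG00000010977 followed the opposite order less sharply. In TNC it had 30.5 CPM in R101, 14.0 in R102, 23.1 in R103, 9.03 in R104, 9.54 in R105 and 13.5 in R106, against 19.6 to 25.5 CPM in SC. R101 was above the SC range and R103 within it, while R102 was below it together with R104, R105 and R106. R102 exceeded R106 by only 0.06 on the log2 scale, so its place in this order rests on a narrow margin.

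**Figure D2:**
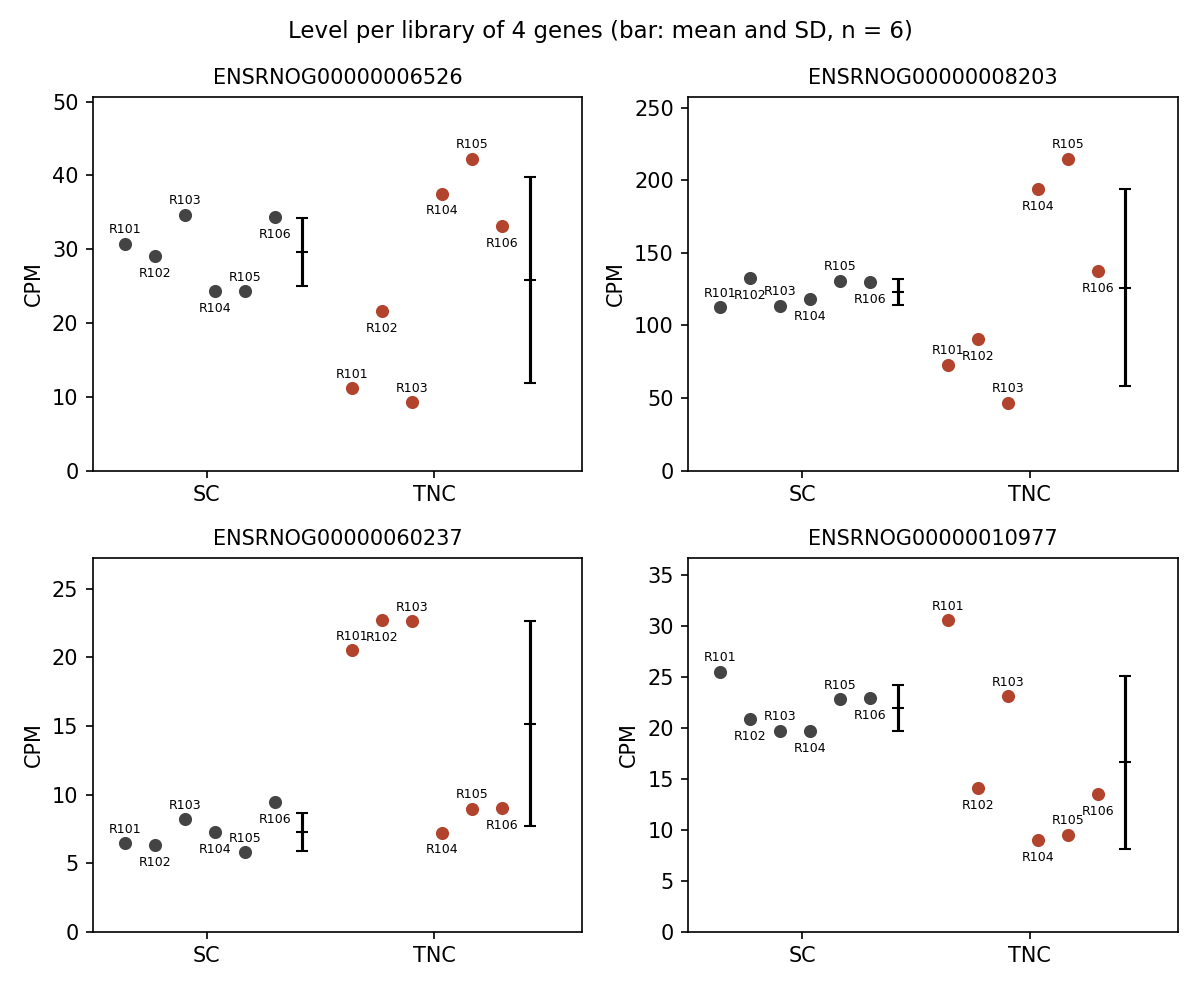
CPM of 4 members in each of the 12 libraries, with points labelled by rat and bars for the mean and SD of 6 libraries. In the upper panels the TNC points of R101, R102 and R103 lie lowest (9.27 to 21.6 CPM and 46.8 to 90.4 CPM), and in the lower left panel they lie highest (20.5 to 22.7 CPM), while the SC points stay close together.

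The 26 genes with the common order were close to their SC level in some animals and below it in others. Their median level relative to each gene's SC mean, on the log2 scale, was -0.92 in the TNC library of R101, -0.73 in R102 and -1.37 in R103. In R104, R105 and R106 it was -0.01, -0.03 and -0.13. The choice had left out 21 genes because the regions differed by 1 or more on the log2 scale. Of these, 20 were lower in TNC and 14 had the common order. That limit favours levels near those in SC, so nothing is read from this nearness. For 25 of the 26 genes the TNC libraries of R101, R102 and R103 were all below the lowest SC library. For 5 genes R104, R105 and R106 were also all below the SC range, and for 3 they were all above it. The 26 genes summed to 464 to 752 CPM in the TNC libraries of R101, R102 and R103, to 1101 to 1303 CPM in those of R104, R105 and R106, and to 1126 to 1279 CPM in the SC libraries.

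R103 was the lowest TNC library for 22 of these 26 genes, R101 for 3 and R102 for 1. R102 was the highest of R101, R102 and R103 for 23 genes. At the upper end the libraries alternated: R105 was highest for 11 genes, R106 for 8 and R104 for 7. The median distance between the highest and lowest of R101, R102 and R103 was 0.78 on the log2 scale, larger than the 0.28 among R104, R105 and R106. Among the 6 SC libraries it was 0.48. That range covers more libraries and was limited by the choice, so it is not compared with the others. The gap that separated R101, R102 and R103 from the rest ranged from 0.09 to 0.81 (median 0.47). Over all 1241 genes with this order the median gap was 0.08 and the median TNC SD 0.198. Members had to have a TNC SD of 0.5 or more, so their wider spread restates the choice, which also favours a wide gap.

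**Figure D3:**
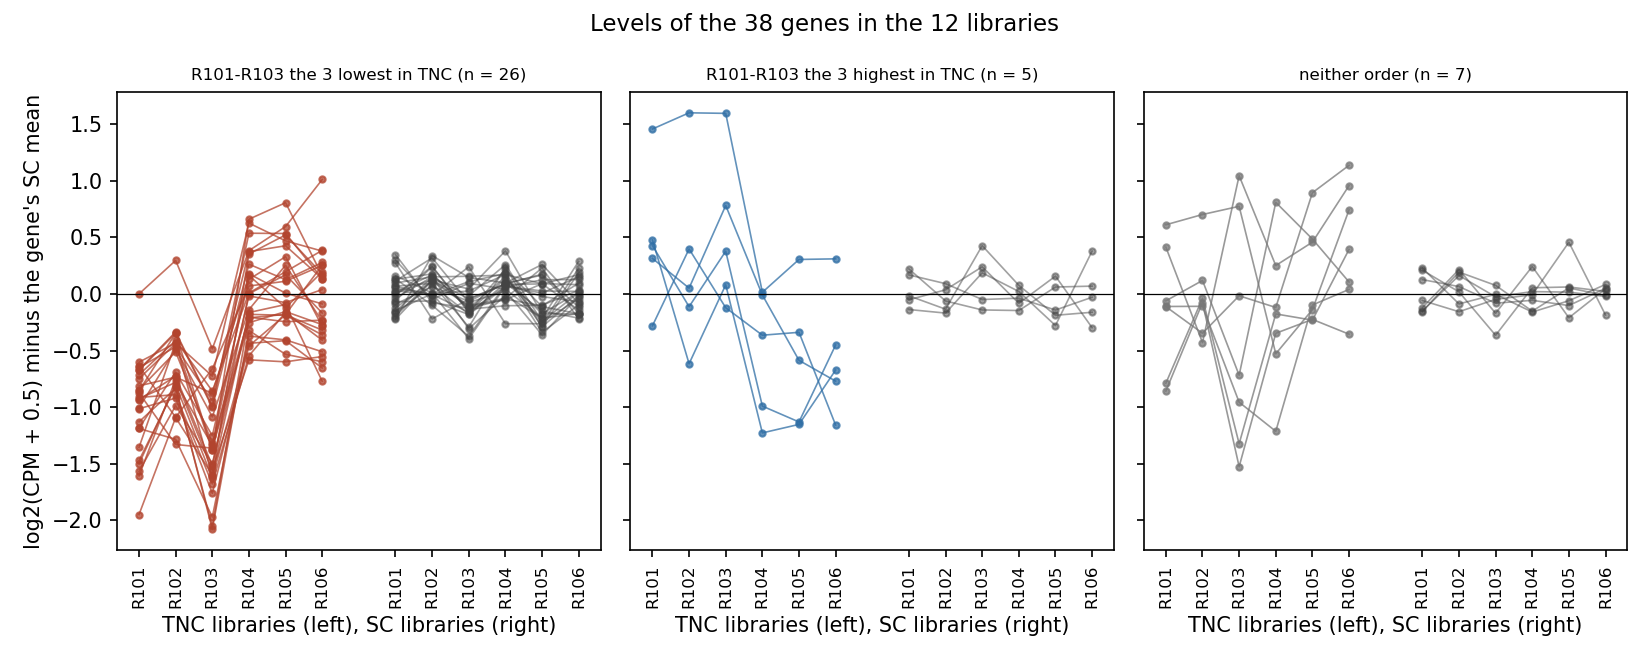
Level of each of the 38 genes in the 6 TNC libraries (left of each panel) and the 6 SC libraries (right, dark grey), as log2(CPM + 0.5) minus the gene's SC mean; lines join the values of 1 gene and imply no order of rats. In the left panel (26 genes) R103 is mostly the lowest TNC library, with a median of -1.37, and R104, R105 and R106 centre near 0; the other panels hold the 5 and 7 remaining genes.

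Of the 5 genes with the opposite order, 4 had a lower mean in TNC than in SC, with mean differences from -0.52 to 0.88 over the 5 genes. The most abundant of all 38 members belonged to this set. It had 367 CPM in R101, 252 in R102, 355 in R103, 137 in R104, 124 in R105 and 199 in R106 in TNC, and 247 to 307 CPM in SC. R101 and R103 were above the SC range, R102 was within it, and R104, R105 and R106 were below it. The remaining pair of this set had a TNC SD of 0.573 and 0.502 and lay within the SC range in 3 and 2 of the TNC libraries, respectively.

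The 7 members with neither order varied in ways of their own. R103 was the lowest TNC library for 3 of them, and R102 and R104 for 2 each. The one with the widest spread (TNC SD 0.615) had 17.2 CPM in R105 and 20.4 in R106 against 6.98 to 8.91 CPM in the other TNC libraries and 7.73 to 10.8 CPM in SC, so 2 rats stood above the rest. Its mean over all libraries, 10.4 CPM, reached the minimum of 10 only through the TNC libraries of these 2 rats. Another had 4.28 CPM in R103 against 7.08 to 12.5 CPM in the other TNC libraries, and its TNC SD of 0.539 fell to 0.294 without that library. A further one had 29.1 CPM in R104 and 38.3 in R105 against 64.7 to 72.5 CPM in the other TNC libraries.

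Most of the 38 members fell under the TNC SD limit of 0.5 when 1 particular library was left out. Without R103, 22 of the 38 genes had a TNC SD under 0.5, against 7 without R106, 4 without R101 or R104, 3 without R102 and 2 without R105. For 11 genes the SD stayed at 0.5 or more whichever TNC library was left out. The smallest SD of a member with 1 library left out was 0.294. When R103 was left out of both regions and the choice repeated over 5 rats, 30 genes met it, 14 of them among the 38.

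Over the 703 pairs of members the median Pearson correlation across the 6 TNC libraries was 0.78, and across the 6 SC libraries 0.09. Pairs with r above 0.8 made up 47.4% in TNC and 4.69% in SC. Within the 26 genes with the common order, the 325 pairs had a median r of 0.91 in TNC and 0.12 in SC. These correlations run over the same 6 libraries for every pair, and genes are not independent replicates. The members were chosen for a wide spread in TNC and a narrow one in SC, where counting error weighs more, and the 26 genes for a shared order in TNC. The choice thus favours high values in TNC and low values in SC, and nothing is read from their contrast. In SC, R101, R102 and R103 were the 3 lowest libraries for 1 member and the 3 highest for 0, orders found in 4.07% and 4.78% of the 9539 genes. The correlation of a member's level in TNC with that in SC of the same rat ranged from -0.72 to 0.95 over the 6 rats. The median r was 0.30 for the members and 0.19 for the 9539 genes. It was above 0 for 65.8% and 63.5% of them, shares close to each other. The choice also limited the spread in SC, so nothing is read from these values.

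Within rats, 78.9%, 81.6%, 81.6% and 71.1% of the members were lower in TNC than in SC in R101, R102, R103 and R104. In R105 and R106, 44.7% and 52.6% were lower. Among the 9539 genes the share lower in TNC was between 46.5% and 56.4% in every rat. The median difference of the 38 genes, TNC minus SC on the log2 scale, was -0.77 in R101, -0.56 in R102 and -1.08 in R103. It was -0.26 in R104, 0.05 in R105 and -0.06 in R106. Over the 9539 genes the medians were between -0.05 and 0.03 in every rat. At least 2-fold lower in TNC were 13 members in R101, 8 in R102 and 20 in R103, against 2 in R104, 1 in R105 and 0 in R106. Among the 9539 genes this share was between 0.964% and 2.53% in every rat. At least 2-fold higher in TNC were 1 member in R101, 1 in R102, 2 in R103, 0 in R104, 1 in R105 and 2 in R106, or 0% to 5.26% per rat, where the 9539 genes had 0.283% to 0.860%. The choice of genes with a wide spread in TNC and a narrow one in SC favours large differences in single rats. Nothing is therefore read from the contrast of these shares with those of the 9539 genes.

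**Figure D4:**
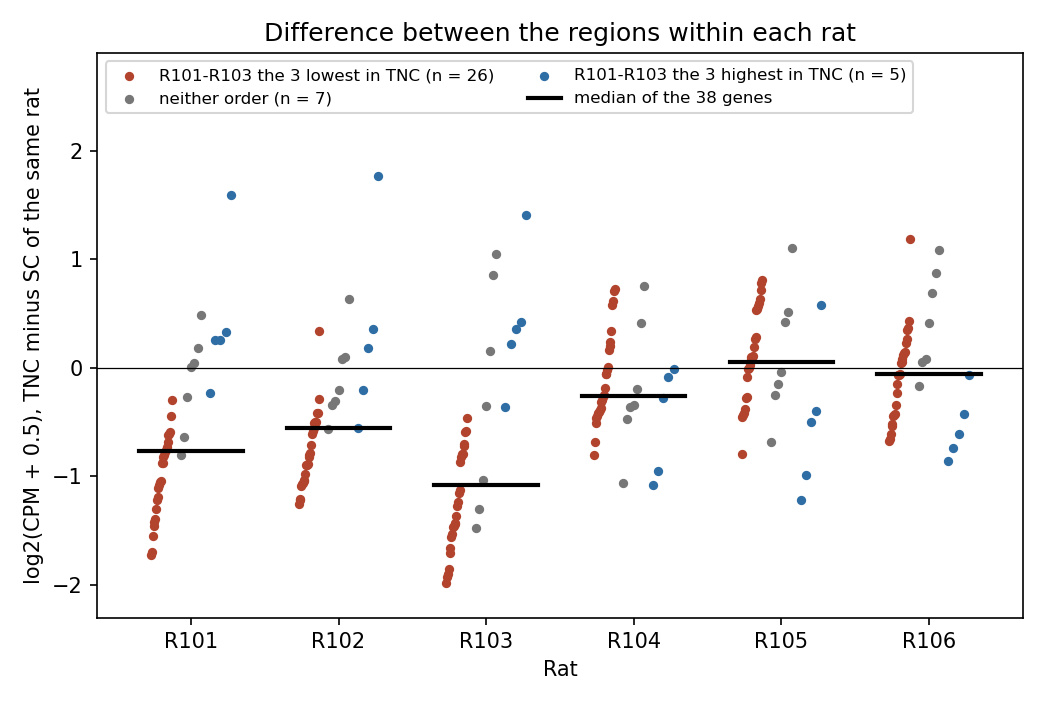
Difference between TNC and SC of the same rat for each of the 38 genes, as log2(CPM + 0.5), coloured by the order of the TNC libraries; black bars are medians over the 38 genes. The medians lie at -0.77, -0.56 and -1.08 in R101, R102 and R103 and between -0.26 and 0.05 in the other rats.

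Over all rats, 32 of the 38 members had a lower mean in TNC and 6 a higher one, with differences between -0.97 and 0.88 on the log2 scale (median -0.40, against -0.01 for the 9539 genes). In the edgeR quasi-likelihood test of TNC against SC with the rat as a block, 16 of the 38 members had an adjusted p under 0.05, 13 lower and 3 higher in TNC. Among all 13833 genes tested 30.3% had one, 15.3% lower and 15.0% higher. The choice of the members limited this same difference, so nothing is read from their count.

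Properties of the libraries are set beside these orders. The TNC library of R103, the lowest for most members, was also the shallowest of all, with 11223405 reads on genes, and had the fewest genes detected, 16449, against 16798 to 17070 in the other TNC libraries. The TNC libraries of R101 and R102 had 12281556 and 11889880 reads and 16923 and 17070 genes, within the range of R104, R105 and R106 or above it. Alignments outside annotated genes made up 12.5%, 15.2% and 13.1% in the TNC libraries of R101, R102 and R103. In those of R104, R105 and R106 they made up 12.7%, 12.9% and 12.5%, and the value of R101 lay within that range. Alignments with an ambiguous gene made up 1.67%, 1.57% and 1.55% in R101, R102 and R103 and 1.58%, 1.502% and 1.44% in the other TNC libraries. Alignments without a unique place made up 13.1%, 13.4% and 13.0% in R101, R102 and R103 and 13.3%, 12.7% and 12.7% in R104, R105 and R106. The TMM scaling factors of the TNC libraries were 0.971, 0.989 and 0.965 in R101, R102 and R103. All were lower than the 0.997, 0.993 and 1.01 in R104, R105 and R106. The part of these properties in the spread was not tested. The labels used here give no date of dissection, capture or sequencing.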

How the data were processed

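The deposited tables, 1 per library, give raw counts of reads for each gene, per the values and HTSeq's closing summary lines in the files. STAR, a spliced aligner, and HTSeq, a read counter, appear in the submitters' processing notes without versions. Settings, strandedness, build and annotation remain not given in the sources used here, hence reads of overlapping or antisense genes may be mixed. The labels' protocols name poly(A) selection and an Illumina HiSeq 2500.

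From the deposited counts, without the summary lines, CPM by library total, log2(CPM + 0.5), SDs and orders were computed. Those lines included 12.5% to 15.7% of alignments outside annotated genes, 12.7% to 13.8% not unique and 1.44% to 1.78% ambiguous. Counting SDs follow from Poisson error and cover counting error only. TNC was compared with SC by edgeR 4.0.16 (R 4.3.3; TMM, filterByExpr with a minimum count of 10, glmQLFit and glmQLFTest, rat as a block, Benjamini-Hochberg adjustment over all genes, threshold 0.05), checked on simulated counts first. The pairing comes from capture of both regions in each rat: deviations from region means correlated between 0.11 and 0.27 within rats and at most 0.08 between rats.

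The members and lists were chosen with earlier results of these data known. Naming all members or the 20 widest needed symbols. The planned fallback of at most 4 identifiers was used, taking the 2 with the largest TNC SD in each order, a choice made after the values were seen. The 27 planned marker and gene lists were not used, for want of symbols. Alternatives were other scalings, a pseudocount of 2, other thresholds, DESeq2 1.42.0, no filter, no block and each rat left out. Rats are the replicates.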

Additional observations from a re-analysis of the deposited data

Results flagged for a closer look

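Library measures and the 4 identified genes, taken per region, made 20 sets of 6 values, and in 2 of them 1 library lay far from the rest (about 5% would by chance). Reads aligned outside annotated genes were most frequent in R102 among the TNC libraries, at 15.2%; the nearest other TNC library had 13.1% and the lowest 12.5%. R106 had the most genes detected among the SC libraries, 17536, where the nearest other had 17364 and the lowest 17262; this was also the deepest library. None of the 4 identified genes had such a library in either region.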

How the results depend on the processing

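The number of genes that met the choice depended on its thresholds: 58 genes with a mean of 5 CPM or more, 23 with 20 CPM or more and 17 with a TNC SD of 0.6 or more, by construction, and 6 by the reverse choice in SC, against 38. It was 40 with TMM factors (34 of the 38 kept), 39 with DESeq2 size factors (33 kept), 31 with a pseudocount of 2 (26 kept) and 51 with an SC SD under 0.3. With each rat left out it ranged from 30 (without R103, 14 of the 38 kept) to 56 (without R102, 32 kept). R101, R102 and R103 were the 3 lowest TNC libraries in 26 members with either other scaling, alternatives chosen after seeing the data.

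Genes called between the regions numbered 4191, and 3406 to 4190 under the alternatives; members called numbered 16, and 13 to 19. With no replicate block 3627 genes and 13 members were called. The TNC SDs of the 4 identified genes moved by less than their standard error under every alternative run. Depth limits the members least abundant in TNC, with as few as 48 reads.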
